A study of Saccharomyces cerevisiae with 17 samples.

Results

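Maltose and sucrose are sugars of brewing wort, and the genes described here take them up and split them in a lager yeast. The list holds 7 genes, chosen by name: the alpha-glucoside transporters MAL31 (YBR298C) and MAL11 (YGR289C), the maltases MAL32 (YBR299W) and MAL12, the MAL activators MAL13 (YGR288W) and MAL33 (YBR297W), and the invertase SUC2 (YIL162W). The array annotation gives 6 of the 7 a probe set, among 5449 Saccharomyces cerevisiae genes tested. MAL12 has no probe set under its own name. The MAL32 probe set carries the design mark of a probe set shared with similar sequences, and MAL12 and MAL32 encode nearly identical maltases. The values given for MAL32 may therefore hold signal of MAL12, and the array does not divide it between them.

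Maltose is the most abundant fermentable sugar of malt wort. A proton symporter carries it across the plasma membrane, maltase splits it into glucose in the cytosol, and a MAL activator switches on the transporter and maltase genes when maltose is present. Invertase is secreted and splits sucrose into glucose and fructose outside the cell. Glucose represses both systems through the repressors of the Mig family, and the kinase Snf1 relieves this repression. In the S. cerevisiae reference strain the MAL11 locus holds the broad alpha-glucoside transporter also known as AGT1.

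The yeast was the lager strain CB11, a single strain sampled in a brewery, and the groups differ in stage and hour. Fermentation was sampled at 8 h and 60 h with 3 arrays each and at 30 h with 2 arrays. It ran in a 3275 hL vessel filled with 6 batches of wort oxygenated to 25 mg/L, and the 8 h sample was drawn 5 h after the last batch had gone in. That yeast had already served in 4 fermentations. Propagation samples, 3 arrays at each of 0, 8 and 30 h, came from a 140 hL vessel at 20 °C held at 7 to 8 mg/L dissolved oxygen, after aerobic growth in a smaller vessel. Both worts held 85% malt and 15% sugar adjunct, and the labels give 17 Plato for the propagation wort. Each stage was 1 vessel, so the arrays of an hour (A, B and C) are samples of the same culture and the p-values measure only the spread between such samples. Stage, vessel, oxygen and the earlier use of the yeast cannot be told apart. Lager yeasts are hybrids of S. cerevisiae and a relative, and the probe sets were designed on S. cerevisiae.

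Values are the deposited log2 expression summaries, in which 1 unit is a doubling. Both later propagation hours, 6 arrays in all, stood apart: they correlated with the remaining 11 at 0.37 to 0.56, against 0.73 to 0.998 among those 11. On the 6 arrays the hybridization controls were at least 12.16, against at most 10.69 on the others, and the 99th percentile of the genes tested was 11.33 to 11.62, against 12.38 to 12.69. Their 13 meiosis markers had a median of 7.98 to 8.68, against 4.61 to 6.24, and their 11 mating markers one of at least 7.15, against at most 6.64. Of the other arrays, propagation 0 h A had the widest gap between the 3' and 5' ends of control transcripts (4.39) and a correlation of 0.83 with its group. Fermentation 60 h A (3.44) and 8 h A (3.10) followed, and fermentation 8 h B and C correlated at 0.998. Propagation 0 h B had a hybridization control mean of 4.83, and in the titles an added suffix of unstated meaning marks every fermentation array except those of 60 h. What that suffix has to do with the results was not tested. The 95th percentile of probe sets for another species, used as a measure of background, was 4.52 to 5.63. All members but MAL33 lay above it on all 17 arrays, and MAL33 lay above it on 12.

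**Figure D1:**
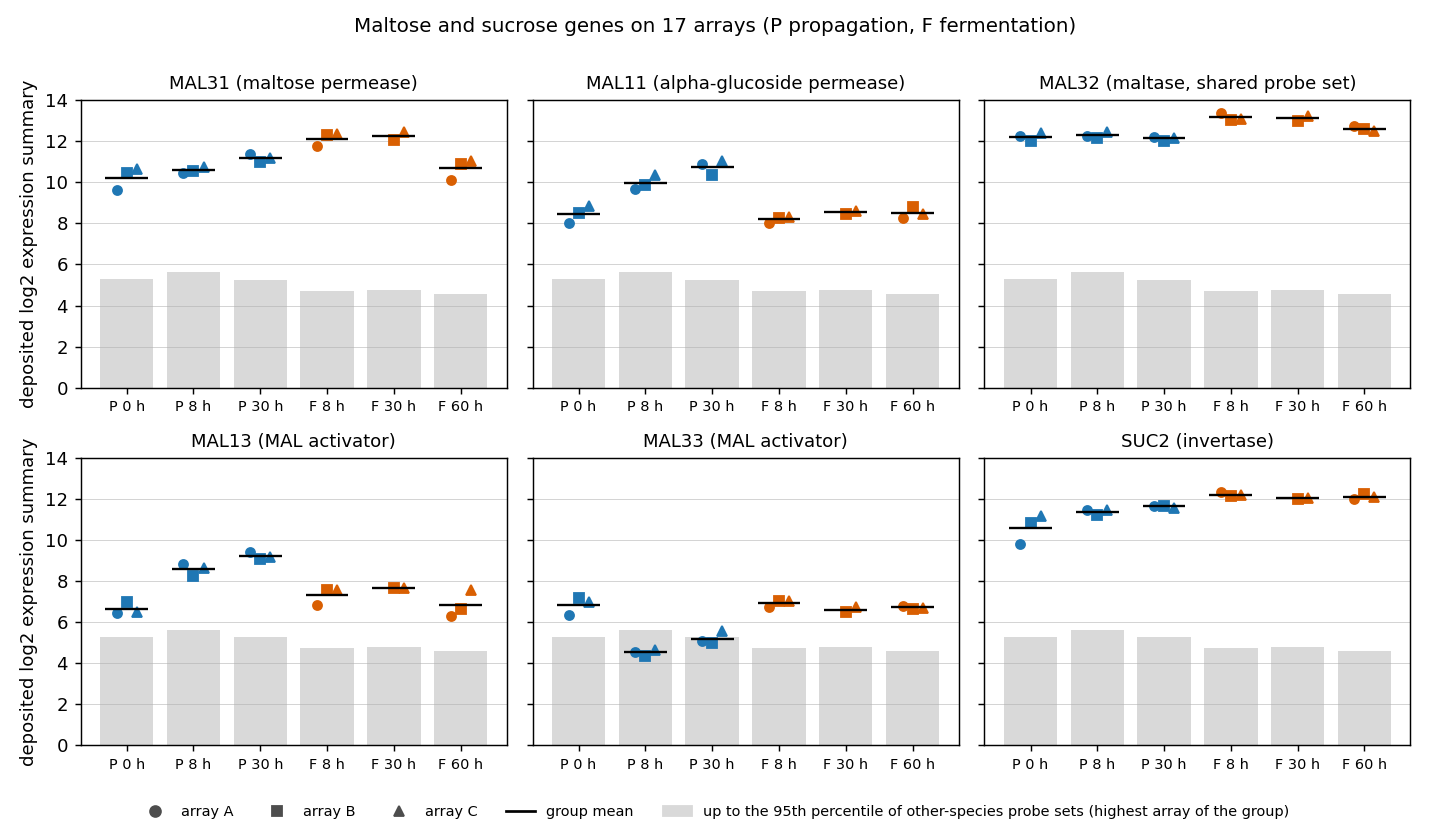
Deposited log2 expression summary (vertical axis) of each member on every array, by group along the horizontal axis (P propagation, F fermentation), with symbols for samples A, B and C, a line at the group mean and a grey block up to the 95th percentile of other-species probe sets. MAL31 read 11.75 to 12.44 at fermentation 8 h and 30 h and at most 11.38 elsewhere, and MAL33 fell to 4.37 to 4.66 at propagation 8 h, inside the grey block.

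The first comparison sets early fermentation against freshly inoculated propagation yeast, and neither group belongs to the 6 arrays that stood apart. The transporter MAL31, the maltase MAL32 and the invertase SUC2 rose at fermentation 8 h, while the transporter MAL11 and both activators did not pass the test. The members passed in 3 of 6 cases, all higher. A gene passed at an adjusted p under 0.05 (limma, Benjamini-Hochberg over all genes tested), and 28.1% of all genes passed here, 16.5% higher and 11.5% lower. The median log2 difference was 0.82 over the members and 0.10 over all genes. Of the 13 meiosis markers 2 were lower, and of the 11 mating markers 1 was higher and 1 lower. Leaving out propagation 0 h B, the array with the low hybridization control, gave 2.01 for MAL31, 0.85 for MAL32 and 1.73 for SUC2, all still past the test.

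MAL31 read 11.75, 12.30 and 12.35 at fermentation 8 h (A, B and C), against 9.62, 10.44 and 10.64 at propagation 0 h. All fermentation samples lay above all propagation samples. The log2 difference was 1.90 (SE 0.30, adjusted p = 0.000185), a 3.74-fold rise, and it was 1.59 without propagation 0 h A, the lowest sample. MAL32 read 13.37, 13.05 and 13.09 at fermentation 8 h, against 12.25, 12.03 and 12.38 at propagation 0 h. Again the groups did not overlap, and the difference of 0.95 (SE 0.20, adjusted p = 0.00183) was a 1.93-fold rise.

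SUC2 read 12.33, 12.12 and 12.18 at fermentation 8 h, against 9.80, 10.84 and 11.17 at propagation 0 h. The fermentation samples lay within 0.21 of each other and above every propagation sample, which spread over 1.37. Its difference was 1.61 (SE 0.27, adjusted p = 0.000313), a 3.05-fold rise, and 1.21 without propagation 0 h A (adjusted p = 9.38e-05).

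MAL11 stood at 8.03, 8.25 and 8.30 at fermentation 8 h, against 8.03, 8.51 and 8.85 at propagation 0 h. The groups overlapped, with a difference of -0.27 (95% interval -0.82 to 0.28, adjusted p = 0.482). The activator MAL13 stood at 6.86, 7.57 and 7.57 at fermentation 8 h, against 6.43, 6.97 and 6.48 at propagation 0 h, a difference of 0.70 (adjusted p = 0.101) with overlap in sample A. The activator MAL33 stood at 6.73, 7.03 and 7.01 at fermentation 8 h, against 6.35, 7.17 and 6.99 at propagation 0 h, a difference of 0.09 (95% interval -0.41 to 0.59).

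**Figure D2:**
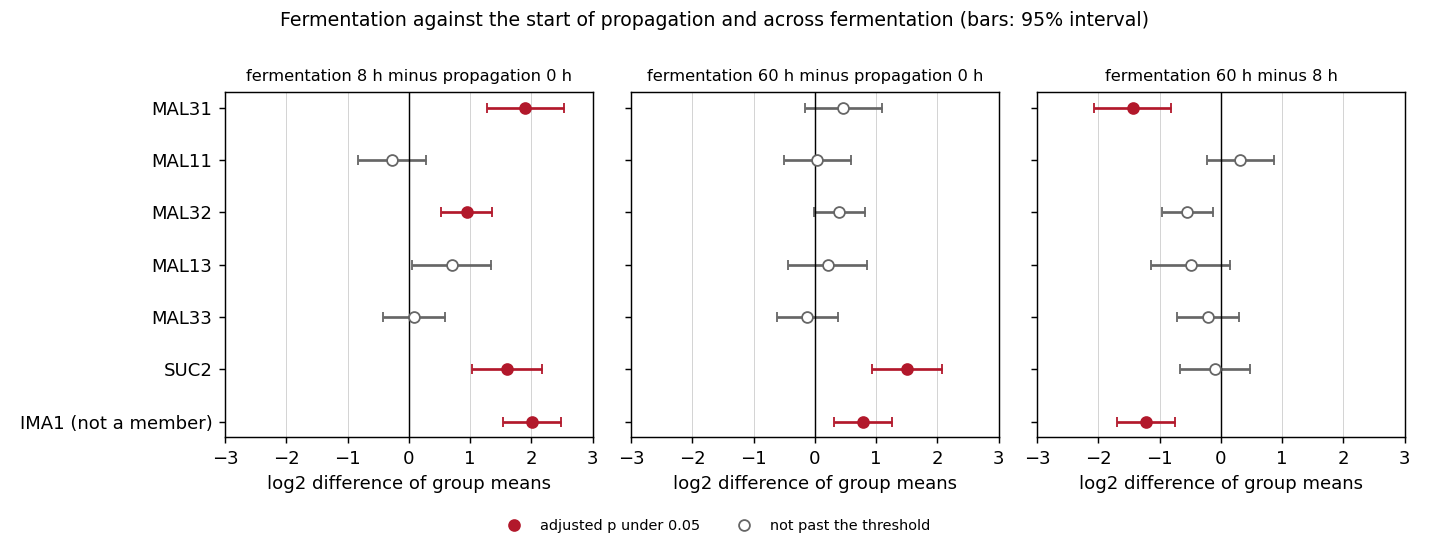
Log2 difference of group means (horizontal axis) with its 95% interval for the 6 members and the isomaltase gene IMA1, in 3 comparisons. Filled points passed at an adjusted p under 0.05: MAL31, MAL32, SUC2 and IMA1 on the left, SUC2 and IMA1 in the middle, and MAL31 and IMA1, both lower, on the right.

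Within fermentation MAL31 changed between the hours, and no change of SUC2 passed. From 8 h to 30 h no member passed (0 of 6, and 0 at an unadjusted p under 0.05), in a comparison in which 0% of all genes passed in limma. MAL31 read 12.05 and 12.44 at 30 h (B and C), inside or just above the 8 h range, and SUC2 read 12.00 and 12.06, just below it. By 60 h, MAL31 had fallen and was the 1 member of 6 that passed, in a comparison in which 15.9% of all genes passed, 9.21% higher and 6.64% lower. The median difference was -0.35 over the members and 0.08 over all genes.

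MAL31 read 10.12, 10.90 and 11.06 at fermentation 60 h, against 11.75, 12.30 and 12.35 at 8 h. Each 60 h sample lay below each 8 h sample. The difference was -1.44 (SE 0.30, adjusted p = 0.00362), which makes the 60 h level 2.71-fold lower, and leaving out single samples gave -1.63 to -1.15. Against fermentation 30 h the difference was -1.55 (SE 0.33, adjusted p = 0.0164), where 4.31% of all genes passed, 2.84% higher and 1.47% lower. That call was lost without fermentation 30 h C (-1.35, adjusted p = 0.355), without 60 h A (-1.26, adjusted p = 0.0587) and without the 6 arrays that stood apart (adjusted p = 0.0557).

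MAL32 read 12.74, 12.61 and 12.51 at fermentation 60 h, below the 13.05 to 13.37 of 8 h with no overlap. Its difference of -0.55 did not pass (95% interval -0.97 to -0.14, adjusted p = 0.067), but it did with the arrays recentred on the median of the genes tested (-0.66, adjusted p = 0.031). SUC2 read 12.00, 12.23 and 12.11 at 60 h, which overlaps the 12.12 to 12.33 of 8 h. Its difference was -0.10, with a 95% interval of -0.67 to 0.47. MAL11 read 8.29, 8.78 and 8.45 at 60 h and MAL33 read 6.79, 6.65 and 6.70, with differences of 0.31 and -0.21 from 8 h that did not pass.

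MAL13 was the member whose 60 h samples disagreed most, at 6.30, 6.63 and 7.58. Sample C lay at the height of the 8 h samples and A and B below them, and the difference of -0.49 did not pass (adjusted p = 0.315).

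At the latest fermentation hour, SUC2 alone of the 6 members still passed against propagation 0 h, in a comparison in which 41.0% of all genes passed, 25.3% higher and 15.7% lower. Its difference was 1.51 (SE 0.27, adjusted p = 0.000349), a 2.85-fold rise, and 1.33 above the median of all genes, which was 0.18. Without propagation 0 h A it was 1.11 (adjusted p = 0.00014). MAL31, with a difference of 0.46 (adjusted p = 0.232), overlapped the propagation samples. MAL32 did not overlap them, with a difference of 0.40 (adjusted p = 0.119). The 3 comparisons above share their 8 h, 60 h or 0 h arrays with each other, so their results are not independent.

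During propagation the members split. MAL11, the activator MAL13 and SUC2 rose at 8 h against 0 h and the activator MAL33 fell, which makes 4 of 6, where 67.4% of all genes passed, 24.3% higher and 43.1% lower. At 30 h MAL31 rose as well, which makes 5 of 6, where 67.3% passed, 28.6% higher and 38.7% lower. With so large a share of all genes past the test, these counts say little about the members as a group. These calls involve the arrays that stood apart: 11 of 13 meiosis markers and 9 of 11 mating markers were higher at 8 h, and 12 of 13 and 9 of 11 at 30 h. The summed linear signal of the meiosis markers was 6174 to 6537 at 8 h and 5668 to 10373 at 30 h, against 453 to 1303 at 0 h. That of the mating markers was 3297 to 3646 at 8 h and 3646 to 5558 at 30 h, against 456 to 1216 at 0 h. The part of these shifts in the results was not tested.

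MAL11 read 9.70, 9.87 and 10.34 at propagation 8 h and 10.87, 10.37 and 11.06 at 30 h, against 8.03, 8.51 and 8.85 at 0 h. Every later sample lay above every 0 h sample. The differences were 1.50 (SE 0.26, adjusted p = 7.94e-05) and 2.30 (SE 0.26, adjusted p = 7.55e-07), the second a 4.93-fold rise. MAL31, the other transporter, read 10.44, 10.56 and 10.76 at 8 h and 11.38, 10.99 and 11.21 at 30 h, against 9.62, 10.44 and 10.64 at 0 h. The 8 h samples overlapped those of 0 h (difference 0.35, adjusted p = 0.304) and the 30 h samples did not (0.96, SE 0.30, adjusted p = 0.00898).

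The level of MAL31 at propagation depended on the scaling and on 1 sample. At 8 h it passed with recentred arrays (0.70, adjusted p = 0.0438) and after quantile normalization of the tested genes (1.2, adjusted p = 0.000366), and without propagation 0 h A its difference was 0.05. At 30 h it was 0.65 without that sample (adjusted p = 0.0404).

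MAL13 read 8.85, 8.25 and 8.66 at propagation 8 h and 9.42, 9.09 and 9.16 at 30 h, against 6.43, 6.97 and 6.48 at 0 h. The groups were more than 1 unit apart, with differences of 1.96 (SE 0.31, adjusted p = 2.89e-05) and 2.60 (SE 0.31, adjusted p = 1.23e-06). MAL33, the other activator, read 4.55, 4.37 and 4.66 at 8 h and 5.07, 4.96 and 5.54 at 30 h, against 6.35, 7.17 and 6.99 at 0 h. On all 8 h arrays and on 30 h A and B it did not exceed the 95th percentile of other-species probe sets, so the low values have no order among themselves. With the 8 h arrays set to that percentile, MAL33 was at least 2.60-fold lower at 8 h than at 0 h (fitted adjusted p = 2.93e-07). At 30 h, where 1 of 3 arrays measured it, the fitted difference was -1.65 (SE 0.24, adjusted p = 1.11e-05). With the other arrays set to the percentile, MAL33 was at least 2.92-fold lower.

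SUC2 read 11.47, 11.20 and 11.44 at propagation 8 h and 11.67, 11.67 and 11.58 at 30 h, against 9.80, 10.84 and 11.17 at 0 h. The 8 h samples lay only just above the highest 0 h sample. The difference was 0.77 at 8 h (SE 0.27, adjusted p = 0.0182) and 1.04 at 30 h (SE 0.27, adjusted p = 0.00265). Leaving out sample A of 0 h (0.37, adjusted p = 0.0918) or sample A of 8 h (0.72, adjusted p = 0.0514) ended the 8 h call, and leaving out the first of these gave 0.64 at 30 h (adjusted p = 0.00642). The 8 h call was also lost with array weights (0.32, adjusted p = 0.151) and with only the groups compared (adjusted p = 0.123). Both settings on the control gap ended it as well (adjusted p = 0.0838 and 0.0706). Quantile normalization gave larger differences, 1.55 at 8 h (adjusted p = 3.89e-06) and 1.88 at 30 h (adjusted p = 3.36e-07).

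MAL32 read 12.26, 12.14 and 12.45 at 8 h and 12.22, 12.03 and 12.17 at 30 h, against 12.25, 12.03 and 12.38 at 0 h. The groups overlapped, with differences of 0.06 and -0.08 that did not pass, but after quantile normalization they were 0.97 (adjusted p = 0.000738) and 0.96 (adjusted p = 0.000764). Between propagation 30 h and 8 h no member passed (0 of 6, 2 at an unadjusted p under 0.05), where 5.01% of all genes passed, 3.08% higher and 1.93% lower. The largest difference there was 0.80 for MAL11 (adjusted p = 0.0907).

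**Figure D3:**
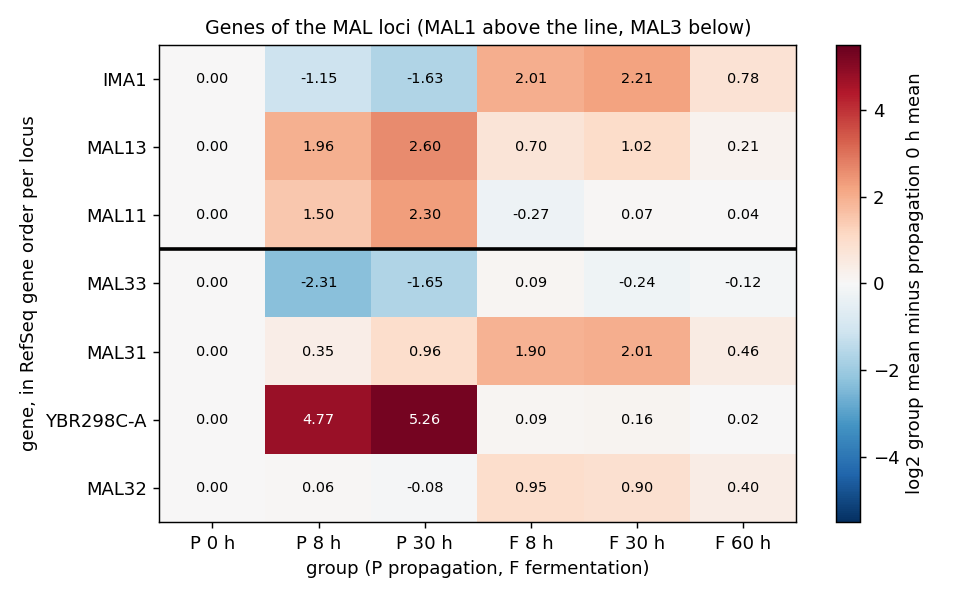
Mean log2 level of each group minus the propagation 0 h mean (colour and printed value) for the genes of the MAL1 locus (above the line) and the MAL3 locus (below it) that have a probe set, in the gene order of the R64 annotation. In the MAL3 locus MAL31 stood at 1.90 and MAL33 at 0.09 at fermentation 8 h, while YBR298C-A stood at 4.77 at propagation 8 h.

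Neighbouring genes of a MAL locus differed in their calls. In the gene order of the R64 annotation IMA1, an isomaltase gene, lies beside MAL13 and MAL11, and MAL33, MAL31 and MAL32 form the other locus. IMA1 read 11.64, 11.73 and 11.62 at fermentation 8 h, against 9.83, 9.28 and 9.84 at propagation 0 h. The groups did not overlap, and the difference was 2.01 (SE 0.22, adjusted p = 7.04e-06), while MAL13 and MAL11 beside it did not pass. At propagation 8 h IMA1 was lower than at 0 h (-1.15, SE 0.22, adjusted p = 0.000245), and MAL13 and MAL11 were higher.

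YBR298C-A, an open reading frame between MAL31 and MAL32, was picked after its values were seen. It read 9.61, 10.06 and 9.82 at propagation 8 h, against 6.0, 4.74 and 4.46 at 0 h, a fitted difference of 4.77 (SE 0.39, adjusted p = 2.8e-08). Only 1 of the 3 arrays of 0 h lay above the 95th percentile of other-species probe sets, and with the others set to that percentile the difference was 4.70. At fermentation 8 h it read 5.84, 4.62 and 5.01, which overlaps the 0 h samples (difference 0.09). Whether probe sets so close to each other read the same transcripts was not tested.

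The next comparison sets fermentation against propagation at the same hour. All 6 members passed at 8 h, 4 higher and 2 lower, where 69.2% of all genes passed, 44.7% higher and 24.4% lower. Because most genes passed there, this count says little about the members as a group. At 30 h 5 of 6 passed, where 65.4% of all genes passed, 37.5% higher and 27.9% lower. In both, MAL33 rose and MAL11 and MAL13 fell in fermentation under all 3 scalings tried. The calls for MAL31, MAL32 and SUC2 depended on the scaling. Of the markers that set the later propagation arrays apart, 12 of 13 for meiosis and 9 of 11 for mating were lower in fermentation at 8 h, and 13 of 13 and 10 of 11 at 30 h. Summed linear signal of the meiosis markers was 503 to 710 in fermentation at 8 h, against 6174 to 6537 in propagation, and 489 to 524 at 30 h, against 5668 to 10373. Their part in the results was not tested.

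MAL11 stood at 8.03 to 8.30 at fermentation 8 h, against 9.70 to 10.34 at propagation 8 h, a difference of -1.78 (SE 0.26, adjusted p = 1.24e-05). At 30 h it read 8.47 and 8.60 in fermentation, against 10.37 to 11.06 in propagation, a difference of -2.23 (SE 0.29, adjusted p = 4.14e-06). The transporter was thus lower in fermentation by 3.43-fold and 4.70-fold, and quantile normalization gave -2.51 and -2.99. MAL13 was lower by -1.25 at 8 h (SE 0.31, adjusted p = 0.00159) and -1.58 at 30 h (SE 0.34, adjusted p = 0.000666), with no overlap in either.

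MAL33 was at least 2.76-fold higher in fermentation at 8 h, with the propagation arrays set to the background percentile (fitted adjusted p = 1.57e-07). At 30 h, where 1 of 3 propagation arrays measured it, the fitted difference was 1.40 (SE 0.27, adjusted p = 0.000189). With the other propagation arrays set to the percentile, MAL33 was at least 2.47-fold higher in fermentation. The 2 activators thus differed in opposite directions between fermentation and the later propagation arrays, which stood apart. Against propagation 0 h neither passed at fermentation 8 h, with MAL13 at 0.70 (adjusted p = 0.101) and MAL33 at 0.09 (adjusted p = 0.828).

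MAL31 was higher in fermentation by 1.55 at 8 h (SE 0.30, adjusted p = 0.000199) and by 1.05 at 30 h (SE 0.33, adjusted p = 0.0109). After quantile normalization the differences were 0.36 (adjusted p = 0.205) and -0.06 (adjusted p = 0.862), and the 30 h call was also lost without fermentation 30 h C (0.85, adjusted p = 0.106). MAL32 was higher by 0.88 (SE 0.20, adjusted p = 0.000713) and 0.98 (SE 0.22, adjusted p = 0.000835). After quantile normalization these were 0.12 and 0.01 and did not pass.

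SUC2 was higher in fermentation by 0.84 at 8 h (SE 0.27, adjusted p = 0.011) and did not pass at 30 h (0.39, adjusted p = 0.266). Recentring gave 0.43 at 8 h (adjusted p = 0.122), and quantile normalization gave -0.22 (adjusted p = 0.337) at 8 h and -0.73 (adjusted p = 0.0088) at 30 h. The stage difference of SUC2 therefore has no settled direction in these arrays.

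**Figure D4:**
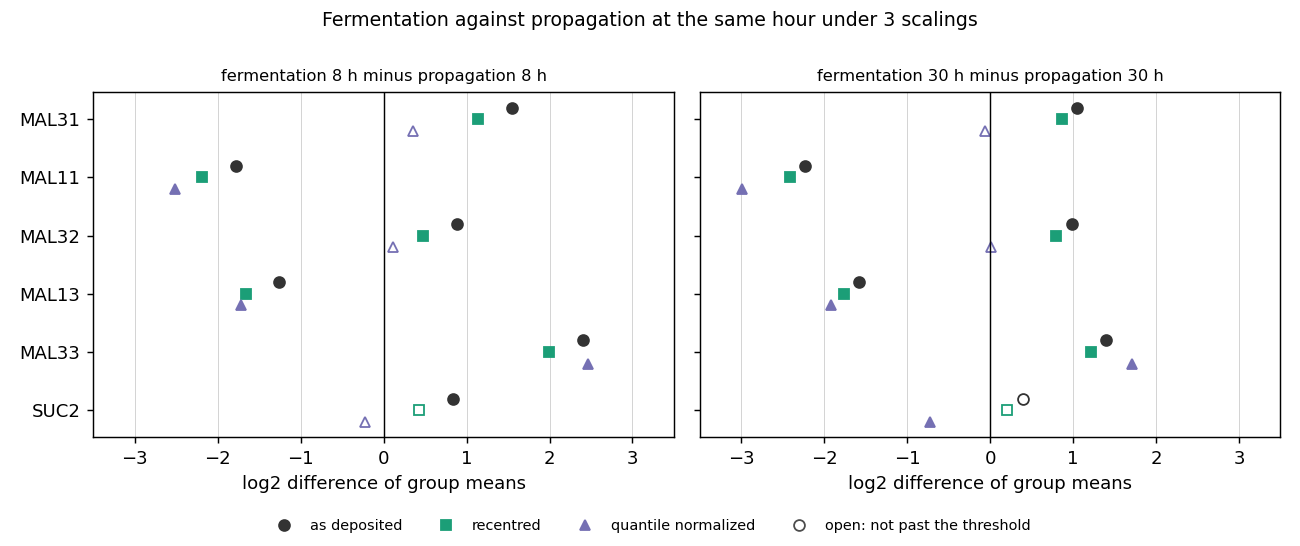
Log2 difference of fermentation minus propagation at 8 h (left) and 30 h (right) for each member, as deposited (circles), with arrays recentred on the median of the tested genes (squares) and after quantile normalization of the tested genes (triangles), open where the adjusted p was not under 0.05. MAL11, MAL13 and MAL33 kept their side of 0 at both hours, and SUC2 at 8 h lay at 0.84 as deposited and at -0.22 after quantile normalization.

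The change between 8 h and 30 h in fermentation was also compared with that in propagation, as the difference of the differences. No member passed (0 of 6, 1 at an unadjusted p under 0.05), where 0.275% of all genes passed in limma, 0.128% higher and 0.147% lower. MAL33 was at -1.0 (SE 0.36, adjusted p = 0.277), a value that rests on propagation arrays of which 5 of 6 were not above background. MAL32 was at 0.10, with a 95% interval of -0.52 to 0.72.

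Ordered by their group means, the members differed in where they were highest. As deposited, MAL31 and MAL32 had their highest means at fermentation 8 h and 30 h, and SUC2 had its 3 highest in the fermentation groups. This order depended on the scaling. After quantile normalization, fermentation minus propagation at 30 h was -0.73 for SUC2, -0.06 for MAL31 and 0.01 for MAL32. MAL31 averaged 12.24 ± 0.28 at fermentation 30 h (SD, n = 2) and 12.14 ± 0.33 at 8 h (SD, n = 3), which did not differ beyond their spread, then 11.19 ± 0.20 at propagation 30 h, 10.70 ± 0.50 at fermentation 60 h, 10.59 ± 0.16 at propagation 8 h and 10.23 ± 0.54 at 0 h (SD, n = 3 each). The last 3 of these overlapped, and propagation 30 h overlapped fermentation 60 h. MAL32 averaged 13.17 ± 0.18 at fermentation 8 h and 13.12 ± 0.19 at 30 h, which overlapped, then 12.62 ± 0.12 at 60 h, and 12.14 to 12.28 in the 3 propagation groups, which overlapped each other (SD). SUC2 averaged 12.21 ± 0.11, 12.03 ± 0.04 and 12.11 ± 0.12 at fermentation 8, 30 and 60 h (SD), and 10.60 ± 0.71, 11.37 ± 0.15 and 11.64 ± 0.05 at propagation 0, 8 and 30 h.

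MAL11 and MAL13 were highest at propagation 30 h, at 10.77 ± 0.36 and 9.22 ± 0.18 (SD, n = 3 each), and next at propagation 8 h. The 4 other groups of MAL11 lay between 8.19 and 8.54 and overlapped, except fermentation 8 h and 30 h, whose difference did not pass. MAL33 lay at 6.59 to 6.93 in the 3 fermentation groups and at 6.84 at propagation 0 h, and no difference tested among these passed.

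Likeness was measured as the Pearson correlation over 11 arrays, leaving out the 6 that stood apart, and the 3 genes nearest to each member are given as a description. Nearest to MAL31 were RAS2 (r = 0.99), RSB1 (r = 0.97) and GSY1 (r = 0.97), and nearest to MAL32 were RGI1 (r = 0.98), LAM4 (r = 0.97) and VHS3 (r = 0.97). SUC2 was nearest to RIM11 (r = 0.997), RGC1 (r = 0.99) and SBP1 (r = 0.99). MAL11 had only looser matches, the nearest being MIX17 (r = 0.87), ILV3 and SRY1 (both r = 0.86).

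The nearest genes to MAL13 were COS10, YRM1 (both r = 0.96) and TDA11 (r = 0.95), and to MAL33 TRS31 (r = 0.92), RHO2 and ATF2 (both r = 0.91). The arrays share vessels and stages. Over all 17 arrays the values of the nearest genes ranged from -0.85 for ILV3 to 0.93 for COS10, with MIX17 at -0.69 and RAS2 at 0.53. Among the members, MAL31 correlated with MAL13 at 0.83, with MAL32 at 0.82 and with SUC2 at 0.71 over the 11 arrays. Over all 17 arrays these were 0.19, 0.72 and 0.71. MAL11 correlated with MAL13 at 0.01 over 11 arrays and at 0.87 over 17, where the arrays that stood apart are included.

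Relatives of the MAL genes and the isomaltases, which split related glucosides, had 6 of 9 listed genes with a probe set under their own name. The probe sets used for the maltose transporter gene MPH2 and for IMA3 carry the mark of shared probe sets. Their values may therefore hold signal of similar genes. Another MPH2 probe set without that mark was dimmer on average and was not used. At fermentation 8 h against propagation 0 h 2 rose and none fell, where 28.1% of all genes passed, 16.5% higher and 11.5% lower. The 2 were IMA1 as above, and MPH2 at 0.73 (adjusted p = 0.0479). The MPH2 call was lost when any of 5 single arrays was left out (adjusted p = 0.0898 to 0.139), that is, any but propagation 0 h A. IMA5 was at 0.52 and ZNF1, a regulator of respiratory growth, at 0.10, and neither passed. On no array of either group did ZNF1 exceed the 95th percentile of other-species probe sets, so its value compares background with background. IMA5 did pass with array weights (0.77, adjusted p = 0.000572) or when propagation 0 h A was left out (0.88, adjusted p = 0.00663). IMA1 then fell at fermentation 60 h, to 10.62, 10.45 and 10.24, against 11.64, 11.73 and 11.62 at 8 h, a difference of -1.23 (SE 0.22, adjusted p = 0.00146). No other relative passed there. At 60 h against propagation 0 h 4 of 6 rose, where 41.0% of all genes passed, 25.3% higher and 15.7% lower. These were MPH2 (0.89), IMA3 (0.85), IMA1 (0.78) and YPR196W (0.54), a MAL activator homolog. None of the 4 passed after quantile normalization (adjusted p = 0.0602 to 0.273) or without propagation 0 h B (adjusted p = 0.0518 to 0.114).

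The enzymes that phosphorylate the hexoses released by maltase and invertase had 3 of 4 higher at fermentation 8 h than at propagation 0 h. In that comparison 28.1% of all genes passed, 16.5% higher and 11.5% lower. HXK1, a hexokinase, read 12.73, 12.95 and 12.90 at fermentation 8 h, against 10.95, 11.29 and 11.62 at propagation 0 h. It did not overlap, with a difference of 1.58 (SE 0.21, adjusted p = 3.63e-05). EMI2, a hexokinase homolog, differed by 2.17 (SE 0.28, adjusted p = 3.4e-05) and the glucokinase GLK1 by 2.09 (SE 0.68, adjusted p = 0.03). GLK1 overlapped between the groups, and its difference was 1.06 without propagation 0 h A (adjusted p = 0.108). The GLK1 call was also lost without fermentation 8 h B or C (adjusted p = 0.112 and 0.113). It was lost as well with only the groups compared (adjusted p = 0.172) and without the 6 arrays that stood apart (adjusted p = 0.0884). HXK2, the hexokinase that also acts in glucose repression, was at 0.72 and did not pass.

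At fermentation 60 h HXK2 had fallen. It read 8.22, 9.16 and 9.24, against 11.37, 11.90 and 11.90 at 8 h, with no overlap and a difference of -2.85 (SE 0.49, adjusted p = 0.000897). EMI2 was lower as well (-0.87, adjusted p = 0.0458), a call lost when any of 5 single arrays was left out, and HXK1 (-0.35) and GLK1 (-0.13) did not pass. Against propagation 0 h, 3 of 4 were higher at 60 h and HXK2 was lower (-2.13, SE 0.49, adjusted p = 0.0024), where 41.0% of all genes passed. Of the 3, GLK1 (1.97) did not pass without propagation 0 h A (0.93, adjusted p = 0.129) or without fermentation 60 h B or C (adjusted p = 0.107 and 0.111).

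Glucose repression and its relief was covered by 18 genes, of which 3 rose and 2 fell at fermentation 8 h against propagation 0 h. These 5 of 18 are no larger a share than the 28.1% of all genes that passed, so the count is no result about the list. The repressor gene MIG2 fell by 1.90 on the log2 scale (SE 0.52, adjusted p = 0.0117), to 6.86, 7.84 and 8.04, against 7.88, 10.35 and 10.23. Its groups overlapped in propagation 0 h A, and the call was lost without propagation 0 h B, without 0 h C or without fermentation 8 h A (adjusted p = 0.0544 to 0.059). CAT8, an activator of gluconeogenic genes, read 10.04, 10.06 and 10.08 at fermentation 8 h, against 8.82, 8.23 and 8.16 at propagation 0 h. It rose by 1.66 (SE 0.25, adjusted p = 0.000121) with no overlap.

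ADR1, an activator of alcohol oxidation genes, rose by 1.47 (adjusted p = 0.00848). REG1, a phosphatase subunit that opposes Snf1, was at 1.54 and did not pass (adjusted p = 0.074). The remaining calls were MIG3 (-1.39, adjusted p = 0.00174) and the corepressor gene CYC8 (1.07, adjusted p = 0.0115), both named after their values were seen. CYC8 was lost without fermentation 8 h B (0.99, adjusted p = 0.0501).

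From 8 h to 60 h of fermentation 2 of the 18 fell, where 15.9% of all genes passed, 9.21% higher and 6.64% lower. The 2 were HXK2 and CYC8 (-1.40, SE 0.29, adjusted p = 0.00349), and MIG2 (-1.54, adjusted p = 0.0543) did not pass. At 60 h against propagation 0 h 4 were lower and 2 higher, where 41.0% of all genes passed, 25.3% higher and 15.7% lower. Neither total is a larger share than that of all genes, so these counts are no result about the list. MIG2 was at -3.44 (SE 0.52, adjusted p = 7.57e-05), HXK2 as above, CAT8 at 2.05 (adjusted p = 9.59e-06) and ADR1 at 1.14 (adjusted p = 0.0243). The ADR1 call was lost without fermentation 60 h C (0.70, adjusted p = 0.149), without 60 h B or propagation 0 h C, and with recentred or quantile normalized arrays (adjusted p = 0.0593 and 0.0658). The Swi/Snf complex, a chromatin remodeller known for its part in SUC2 activation, had none of its 8 genes past the test in these 3 comparisons (0, 1 and 1 at an unadjusted p under 0.05). Its largest differences were 0.44 for SNF2 at fermentation 8 h and 0.46 for SNF2 at 60 h, each against propagation 0 h, and 0.55 for SWI1 at fermentation 60 h against 8 h. In that order, 28.1%, 41.0% and 15.9% of all genes passed in these comparisons.

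**Figure D5:**
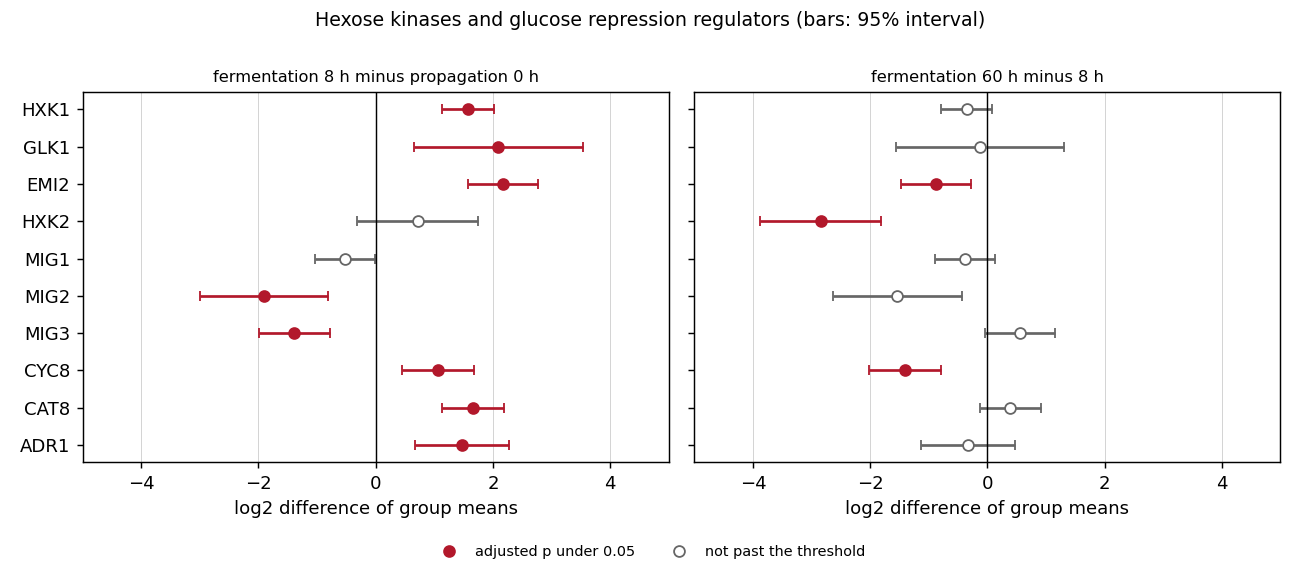
Log2 difference of group means (horizontal axis) with its 95% interval for hexose kinases and regulators of glucose repression, at fermentation 8 h minus propagation 0 h (left) and fermentation 60 h minus 8 h (right), filled where the adjusted p was under 0.05. HXK1, GLK1, EMI2, CYC8, CAT8 and ADR1 were higher and MIG2 and MIG3 lower on the left, and on the right EMI2, HXK2 and CYC8 were lower.

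Galactose use is another sugar system under glucose repression, and 6 of its 7 listed genes were on the array. None passed at fermentation 8 h against propagation 0 h (1 at an unadjusted p under 0.05), where 28.1% of all genes passed. GAL1, the galactokinase, was at 0.72. GAL1 passed without propagation 0 h A (1.17, adjusted p = 0.00194), with array weights and under both settings on the control gap. At fermentation 60 h against propagation 0 h GAL1 (1.04, adjusted p = 0.0193) and the transferase gene GAL7 (0.83, adjusted p = 0.00951) were higher. Of all genes 41.0% passed there, 25.3% higher and 15.7% lower. GAL1 did not pass with recentred arrays (0.87, adjusted p = 0.0607), after quantile normalization (0.70, adjusted p = 0.109) or without propagation 0 h B (0.57, adjusted p = 0.119), and was 1.49 without propagation 0 h A. On the arrays that stood apart, 4 of the 6 were higher and 1 lower at propagation 8 h against 0 h, where 67.4% of all genes passed. GAL1 differed by 4.48 (adjusted p = 1.06e-08) and the galactose transporter gene GAL2 by 3.89 (adjusted p = 3.89e-09), and the sensor gene GAL3 by -1.88 (adjusted p = 5.59e-06). Among the relatives of the MAL genes, YPR196W (2.41), MPH2 (1.88) and IMA5 (0.75) were higher and IMA1 lower in the same comparison, of 6 measured. The IMA5 call was lost without propagation 0 h B (0.36, adjusted p = 0.202) and with only the groups compared (adjusted p = 0.137). Leaving out any single propagation 8 h array ended it too (adjusted p = 0.0502 to 0.0575).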

How the data were processed

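RNA of 17 samples was hybridized to Affymetrix yeast arrays with 10928 probe sets. The deposited values are log2 expression summaries, and RMA is named in the submitters' processing notes; which arrays were normalized together is not given in the sources used here. Probe sets were named through the platform annotation and current symbols through the RefSeq R64 gene table, which also gave the gene order. Of 5498 S. cerevisiae probe sets, a gene with several (47 genes) was represented by its brightest on average, giving 5449 genes. No filter on dim genes was applied.

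A linear model with 1 coefficient for each of the 6 groups was fitted over the 17 arrays in limma 3.58.1 in R 4.3.3 (lmFit and eBayes). Tests of 11 contrasts were two-sided, with Benjamini-Hochberg adjustment across all genes of a contrast at a threshold of 0.05. The fit was tested on simulated data. The number of arrays limits the precision. All members were named. Other genes came from lists of maltose relatives, glucose repression, Swi/Snf, hexose phosphorylation and galactose use, with up to 4 each by size of change, and the 3 genes most like each member. Members and lists were chosen with earlier results of these data known.

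Alternatives left out the dimmest 25% of genes (MAL33 among them), tested every probe set, recentred or quantile normalized the arrays, weighted the arrays, added the replicate letter as a block, fitted only the groups compared, or left out each array in turn. The labels name no pairing by letter, and the main fit used none. Residuals correlated above 0.1 in 14 of 40 pairs with the same letter (range -0.15 to 0.78). Pairs with different letters were not examined, so these values do not settle whether samples of a letter belong together. The arrays with the widest control gap (propagation 0 h A, fermentation 60 h A and 8 h A) share the letter A.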

Additional observations from a re-analysis of the deposited data

How the results depend on the processing

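Over the 11 comparisons the 6 members gave 66 values, of which 26 passed, and 19 of the 26 kept their sign and stayed past the threshold under every alternative run. Of 1051 alternative values of members, 1010 stayed on their side of the threshold, 14 lost it, 23 gained it and 4 changed sign with a pass on one side. A further 45 changed sign with no pass on either side, the largest at a size of 0.17. The 4 sign changes all came from quantile normalization of the tested genes: MAL32 at propagation 30 h minus 0 h (0.96), SUC2 at fermentation minus propagation at 8 h (-0.22) and 30 h (-0.73), and MAL31 at 30 h (-0.058). That setting also left 3 of 6 members passing at fermentation 8 h minus propagation 8 h. Array weights gave propagation 0 h A a weight of 0.063. They gave 11.7 and 8.31 to fermentation 8 h B and C, the near-identical arrays, and 4.73 to 60 h B. With these weights the number of members that passed rose to 5 at fermentation 8 h minus propagation 0 h and 3 at 60 h minus propagation 0 h. It rose to 5 at fermentation 60 h minus 8 h, 3 at 60 h minus 30 h and 1 for the difference of the 8 h to 30 h changes. Which weights moved the counts was not tested. At fermentation 60 h minus 8 h 2 members passed with recentred arrays, with only the groups compared and with the control gap as a covariate. At propagation 30 h minus 8 h 3 passed without the 3 arrays of widest control gap and 2 with the gap as a covariate. At fermentation 60 h minus 30 h none (0) passed without the 6 arrays that stood apart. The settings on the control gap, on those 6 arrays and on averaging fermentation 8 h B and C were chosen after seeing the data. Leaving out single arrays gave 3 to 4 members at propagation 8 h minus 0 h, 5 to 5 at 30 h minus 0 h, 4 to 5 at fermentation 30 h minus propagation 30 h, 6 to 6 at 8 h minus propagation 8 h, 0 to 1 at fermentation 60 h minus 30 h, 1 to 1 at 60 h minus 8 h and at 60 h minus propagation 0 h, 3 to 3 at fermentation 8 h minus propagation 0 h, and 0 to 0 in the others. The replicate block gave 3 members at fermentation 8 h minus propagation 0 h and 1 at fermentation 60 h minus 8 h, as without it, and changed no other count of members. Recentring moved the share of higher calls among all genes to 47.0% at propagation 8 h minus 0 h (36.1% as deposited), 31.9% at 30 h minus 8 h (61.5%), 45.1% at fermentation 60 h minus 8 h (58.1%), 35.6% at 60 h minus 30 h (66.0%), 49.8% at 60 h minus propagation 0 h (61.7%), 52.8% at fermentation 8 h minus propagation 8 h (64.7%) and 76.9% for the difference of the changes (46.7%). The cause of these shifts was not tested. No raw intensities were analysed, which leaves the other-species probe sets as the measure of background.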
